A study of Mus musculus with 12 samples.

Results

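Expression of 10 genes of the nuclear lamina and of the LINC complex was described in 4 populations of mouse bone marrow progenitors. The genes were the lamins Lmna, Lmnb1 and Lmnb2, the inner nuclear membrane proteins Lbr, Emd and Tmpo, the SUN proteins Sun1 and Sun2 and the nesprins Syne1 and Syne2. They are 10 of the 18193 genes measured, and all 28 probe sets annotated with exactly 1 of these symbols were used, of 45037 on the array. Lmna was chosen because its signal was much higher in megakaryocyte-erythrocyte progenitors and in CD27- common myeloid progenitors. Its values across CD27 are therefore a description without a test. The other 9 genes, with 23 probe sets, were added for their function and were tested.

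RNA from sorted cells of female C57BL/6 mice, 4 to 6 weeks old, was hybridised to Affymetrix Mouse Genome GeneChip arrays, 3 per population. Every population was depleted of lineage markers and sorted as CD117+ and Sca-1-. Megakaryocyte-erythrocyte progenitors (MEP) were further sorted as CD34-, CD16/32- and CD27-. The CD27- fraction of common myeloid progenitors (CD27- CMP) was CD34+ and CD16/32-. Granulocyte-monocyte progenitors (GMP) were CD34+, CD16/32+ and CD27+. The CD27+ fraction of common myeloid progenitors (CD27+ CMP) was CD34+ and CD16/32-. MEP and CD27- CMP thus share the absence of CD27, a TNF receptor family member, and GMP and CD27+ CMP share its presence. Each population was represented by RNA of 80000 cells. The labels call the arrays biological replicates without saying whether they came from separate animals or pools, so p-values measure only the spread between these arrays.

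The nuclear lamina is a meshwork of intermediate filament proteins under the inner nuclear membrane. B-type lamins stay farnesylated and membrane-bound, whereas lamin A loses its farnesyl group during maturation, and A-type lamins make the nucleus stiffer. LBR and A-type lamins provide separate tethers for peripheral heterochromatin. SUN proteins of the inner membrane and nesprins of the outer membrane form the LINC complex, which couples the lamina to the cytoskeleton. In mammalian red cell formation the nucleus condenses and is finally expelled, while granulocyte nuclei become lobed, a shape that depends on LBR.

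Values are log2 signals relative to the median of the 12 arrays for the same probe set. A value of 1 is a doubling over that median, and levels of different probe sets cannot be set against each other. A probe set that stays near 0 may be unexpressed or evenly expressed. In sorted bulk RNA, fewer expressing cells and less RNA per cell cannot be told apart.

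Across the CD27 divide the family did not move as a block. Sun1 was higher and Lmnb1, Lmnb2 and Sun2 were lower in the populations without CD27, each by at least 1 probe set in both comparisons, while Emd and Syne2 passed the test in neither. Of the 23 tested probe sets, 7 passed in CD27- CMP against CD27+ CMP, with 2 higher and 5 lower. Among all probe sets 14.1% passed, 6.49% higher and 7.65% lower. Without CD27- CMP replicate 3 the numbers over all probe sets were 4851 higher and 3541 lower, against 2925 and 3444 with it. In MEP against GMP 6 passed, with 3 higher and 3 lower, against 14.8% of all probe sets (7.27% higher and 7.54% lower). The 2 differences rest on different arrays, but both tests share 1 estimate of spread from all 12 arrays, so their calls are not independent. The same 4 probe sets passed in both, against 10.5% of all probe sets. The sign was the same in both for 18 of the 23, and for 85.3% of all probe sets. The median difference over the 23 was -0.04 in CD27- CMP minus CD27+ CMP and 0.03 in MEP minus GMP, against 0.02 and 0.04 over all probe sets. All 6 arrays without CD27 lay below all 6 arrays with CD27 in 5 of the 23 probe sets and above them in 2. These patterns were shown by 6.9% and 7.26% of all probe sets.

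**Figure D1:**
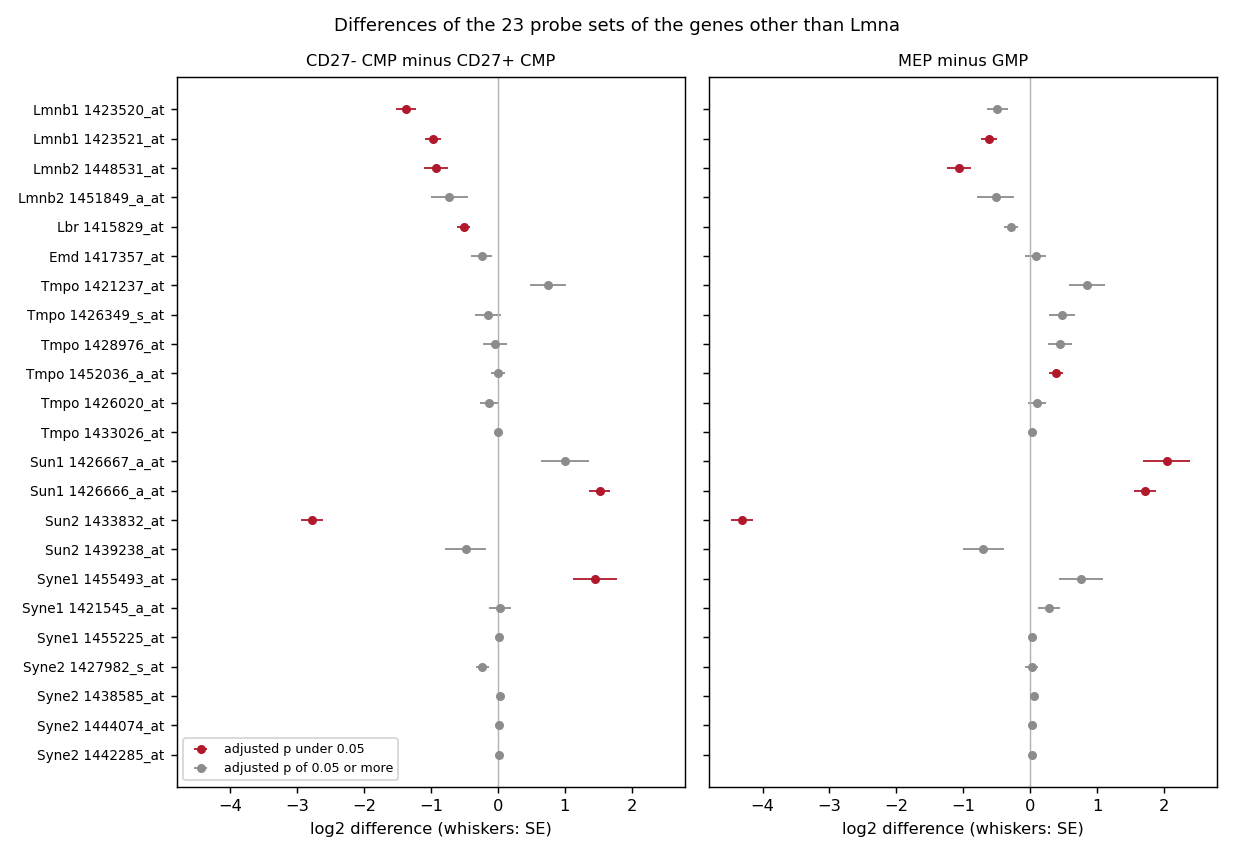
Log2 difference of each of the 23 tested probe sets in CD27- CMP minus CD27+ CMP (left) and in MEP minus GMP (right), with whiskers of 1 standard error and red points where the adjusted p was under 0.05. Sun2 1433832_at lies farthest below 0 (-2.78 and -4.31), and both Sun1 probe sets lie above 0 in both panels.

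Lmna encodes lamins A and C. Its probe set with the largest range, 1421654_a_at, read 4.17, 4.18 and 4.14 in the 3 MEP arrays and 4.00, 4.11 and 3.37 in the CD27- CMP arrays. The GMP arrays gave -4.87, -4.82 and -4.08, and the CD27+ CMP arrays gave -4.38, -3.37 and -4.39. The groups with and without CD27 lay far apart, every MEP array was above every CD27- CMP array, and GMP overlapped CD27+ CMP. The CMP fractions differed by 7.87 ± 0.322 log2 (SE), and MEP exceeded GMP by 8.76. With GMP and CD27+ CMP signals of unknown distance from background, the size of these folds is uncertain.

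Another Lmna probe set, 1457670_s_at, read 2.69, 2.99 and 2.70 in MEP and 3.65, 3.16 and 1.71 in CD27- CMP, against -2.01, -2.62 and -1.98 for GMP and -2.38, -1.98 and -1.71 in CD27+ CMP. The divide was the same and the order within each side overlapped. The CMP fractions differed by 4.86 log2 and MEP and GMP by 4.997. The probe set 1425472_a_at had smaller differences of 1.44 and 0.96 log2, again without overlap across CD27. The last pair, 1426868_x_at and 1452212_at, was nearly flat, with ranges of 0.552 and 0.236 log2 over the 12 arrays. In 3 of the 5 Lmna probe sets all 6 arrays without CD27 lay above the 6 with it, as in 7.26% of all probe sets. Lmna was chosen for this pattern, so the count is only a description. An _x_at or _s_at suffix marks probes that may bind transcripts of more than 1 gene, and an _a_at suffix marks probes shared by several transcripts of a gene.

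**Figure D2:**
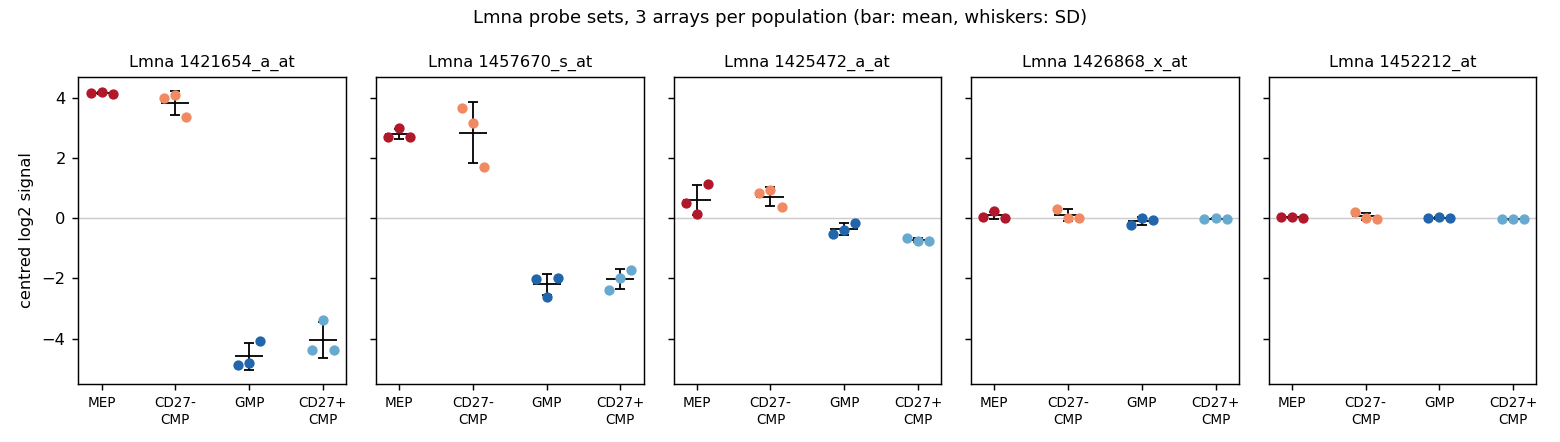
Centred log2 signal of the 5 Lmna probe sets by population, 3 arrays each, with the mean as a bar and the SD as whiskers. For 1421654_a_at the MEP and CD27- CMP arrays lie between 3.37 and 4.18 and all others at -3.37 or below, while the 2 probe sets on the right stay near 0.

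Promoter sequences are shown for Lmna and for Sun1, Lmnb2 and Sun2, picked after their values were seen among the genes that passed in both comparisons across CD27. RefSeq (GRCm38.p6) gave 15 windows of 9 members, each the 250 bases before an annotated start. The windows printed are chr3:88503353-88503602 on the minus strand for Lmna, chr5:139200387-139200636 on the plus strand for Sun1, chr10:80918246-80918495 on the minus strand for Lmnb2 and chr15:79742537-79742786 on the minus strand for Sun2. Where a gene had several windows, the one of the most upstream start among the 15 was printed. The annotated Lmna gene extends to chr3:88509932, so the printed Lmna window lies inside the gene, before an internal start. No window before its outermost start was among the 15. The annotated Sun1 gene starts at chr5:139200564, so part of the printed Sun1 window lies inside that gene. Capitals mark matches to CCNCNCCC on either strand, a form of the CACCC box bound by Krüppel-like factors.

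Lmna: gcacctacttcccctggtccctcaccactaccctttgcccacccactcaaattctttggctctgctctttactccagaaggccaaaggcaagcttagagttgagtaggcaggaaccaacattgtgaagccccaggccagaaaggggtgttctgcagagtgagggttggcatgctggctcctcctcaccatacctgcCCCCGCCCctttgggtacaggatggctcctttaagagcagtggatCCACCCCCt

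Sun1: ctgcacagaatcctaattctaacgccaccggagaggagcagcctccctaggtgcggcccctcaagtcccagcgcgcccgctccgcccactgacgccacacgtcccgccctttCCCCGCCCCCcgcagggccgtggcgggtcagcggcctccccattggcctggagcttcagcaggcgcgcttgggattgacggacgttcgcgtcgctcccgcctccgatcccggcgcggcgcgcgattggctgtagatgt

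Lmnb2: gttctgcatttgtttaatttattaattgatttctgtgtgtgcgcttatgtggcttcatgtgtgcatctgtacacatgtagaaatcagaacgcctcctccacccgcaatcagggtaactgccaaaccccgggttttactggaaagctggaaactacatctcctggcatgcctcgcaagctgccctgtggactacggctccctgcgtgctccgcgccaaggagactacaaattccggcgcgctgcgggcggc

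Sun2: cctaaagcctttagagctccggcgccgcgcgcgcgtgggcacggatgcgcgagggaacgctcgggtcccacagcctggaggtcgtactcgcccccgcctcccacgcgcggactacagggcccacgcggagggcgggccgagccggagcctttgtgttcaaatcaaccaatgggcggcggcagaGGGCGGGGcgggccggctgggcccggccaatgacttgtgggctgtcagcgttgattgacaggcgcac

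The printed Lmna window held 2 CACCC matches, 54 and 9 bases before its internal start. The printed Sun1 window held 2 overlapping matches, 138 and 136 bases before the start, and the Sun2 window held 1 on the opposite strand, 67 bases before it. The printed Lmnb2 window held none, and neither did the second window of Lmna, Sun1 or Lmnb2. Of the 15 windows, 7 had such a match, against 45.9% of 32851 promoters of the same length. The letters GATA, preceded by A or T and followed by A or G, occurred in 2 windows, of Lbr and Tmpo, against 26.5% of promoters, and in none of the 4 windows printed. The PU.1 letters AGGAAGT occurred in 1 window, of Emd, against 7.69%, and the C/EBP letters TTGCNNAA in 0, against 9.56%. Matches describe letters and not bound sites.

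Both B-type lamins were lower in CD27- CMP than in CD27+ CMP. Lmnb1 (1423520_at) read -0.22, -0.45 and -0.08 in MEP and -0.94, -0.77 and -0.55 in CD27- CMP, against 0.08, 0.14 and 0.49 for GMP and 0.46, 0.57 and 0.83 in CD27+ CMP. All 6 arrays without CD27 lay below the 6 with it, and MEP lay above CD27- CMP without overlap. The difference was -1.38 ± 0.154 in CD27- CMP minus CD27+ CMP (SE; limma, adjusted p = 0.000224). In MEP minus GMP it was -0.49, which did not pass (adjusted p = 0.0702) but did with quantile normalization (-0.56, adjusted p = 0.0346) and with the replicate block (adjusted p = 0.00349).

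The second Lmnb1 probe set, 1423521_at, fell in both comparisons, by 0.97 between the CMP fractions (adjusted p = 0.000493) and by 0.61 between MEP and GMP (adjusted p = 0.00764). Its MEP and CD27- CMP arrays overlapped. Lmnb2 (1448531_at) read -0.94, -0.55 and -0.18 in MEP and -0.47, -0.45 and -0.72 in CD27- CMP, against 0.47, 0.44 and 0.60 for GMP and 0.18, 0.57 and 0.39 in CD27+ CMP. All arrays without CD27 were below those with it, and the pairs on each side overlapped. Lmnb2 was lower by 0.93 in CD27- CMP (-0.93 ± 0.177, adjusted p = 0.00625) and by 1.06 in MEP (-1.06, adjusted p = 0.00262). Its other probe set, 1451849_a_at, had the same signs and did not pass (-0.73, adjusted p = 0.138, and -0.51, adjusted p = 0.292).

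Among inner membrane proteins, Lbr fell in the CMP comparison. Lbr (1415829_at), the lamin B receptor, read -0.55, -0.32 and -0.28 in CD27- CMP, against 0.18, 0.00 and 0.21 in CD27+ CMP, without overlap (-0.51 ± 0.0998, adjusted p = 0.00697). Between MEP and GMP the difference was -0.29 (adjusted p = 0.104), and it passed with quantile normalization (-0.34, adjusted p = 0.0075). All 6 arrays without CD27 lay below the 6 with it, but the sides nearly touched, with MEP replicate 1 at -0.0049 and CD27+ CMP replicate 2 at 0.0049. Emd (1417357_at), which encodes emerin, spanned 0.751 log2 over the arrays and overlapped across CD27, with differences of -0.24 (adjusted p = 0.437) and 0.08 (adjusted p = 0.713).

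Tmpo encodes the lamina-associated polypeptides 2, and its 6 probe sets did not move alike. Their ranges ran from 0.08 to 1.81 log2. The widest, 1421237_at, read 0.86, 0.71 and 0.52 in MEP and -0.46, -0.02 and 0.65 in CD27- CMP, against -0.51, 0.03 and 0.02 for GMP and -0.95, -0.61 and -0.53 in CD27+ CMP. CD27+ CMP was lowest on average and MEP highest. These populations, picked after their values were seen, differed by 1.39, which is given as a description without a test. Neither CD27- CMP minus CD27+ CMP (0.75, adjusted p = 0.114) nor MEP minus GMP (0.85, adjusted p = 0.0706) passed. Without CD27- CMP replicate 1 both passed (1.01, adjusted p = 0.0297, and 0.85, adjusted p = 0.0342), and without CD27- CMP replicate 3 MEP minus GMP passed (adjusted p = 0.0195). Among the other settings, the range filter (0.0411 and 0.0229) and array weights (0.0416 and 0.000999) brought both comparisons past the threshold, and quantile normalization (0.0454) and the fit of only the populations compared (0.0413) brought MEP minus GMP past it. Only 1452036_a_at passed, in MEP minus GMP (0.39 ± 0.104, adjusted p = 0.0337), and that call was lost under median centring of the arrays (adjusted p = 0.059) and quantile normalization (0.0772), in the fit of only the populations compared (0.088) and with the replicate block (0.0596). It was lost as well when any of 7 single arrays was left out, namely MEP replicate 1 (adjusted p = 0.0963), 2 (0.101) or 3 (0.0677), GMP replicate 2 (0.0747) or 3 (0.0838), CD27+ CMP replicate 3 (0.0505) and CD27- CMP replicate 2 (0.0511). In CD27- CMP minus CD27+ CMP the 6 differences lay between -0.15 and 0.75, with a lowest adjusted p of 0.114.

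The SUN proteins moved in opposite directions across CD27. Sun1 (1426666_a_at) read 1.18, 1.19 and 0.89 in MEP and 1.05, 0.89 and 0.52 in CD27- CMP, against -0.71, -0.64 and -0.54 for GMP and -0.59, -0.52 and -0.98 in CD27+ CMP. All 6 arrays without CD27 were above the 6 with it. Sun1 rose by 1.52 ± 0.159 in CD27- CMP (adjusted p = 0.000142) and by 1.72 in MEP (adjusted p = 5.66e-05). The second Sun1 probe set, 1426667_a_at, read 1.45, 1.25 and 1.59 in MEP and 0.22, 0.01 and 0.65 in CD27- CMP, against -0.53, -1.28 and -0.01 for GMP and -1.34, -0.34 and -0.45 in CD27+ CMP. Here MEP stood alone at the top, and the arrays with and without CD27 again did not overlap. It passed in MEP minus GMP (2.04, adjusted p = 0.0034) and not between the CMP fractions (1.00 ± 0.354, adjusted p = 0.111). With the range filter the difference between the CMP fractions passed (adjusted p = 0.0263).

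Sun2 had the widest spread of the 9 tested genes. Its probe set 1433832_at read -1.48, -1.65 and -1.67 in MEP and -1.22, -1.35 and -1.57 in CD27- CMP, against 2.76, 2.38 and 2.99 for GMP and 1.61, 1.22 and 1.38 in CD27+ CMP. GMP was highest, CD27+ CMP followed without overlap, and MEP and CD27- CMP overlapped at the bottom. Sun2 fell by 2.78 in CD27- CMP (-2.78 ± 0.163, adjusted p = 3.29e-06) and was also lower in MEP than in GMP (-4.31, adjusted p = 1.79e-07).

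Sun2 was also the only member to pass in GMP minus CD27+ CMP (1.31, adjusted p = 0.00247), where 3.04% of all probe sets passed and 1.57% were higher in GMP. A fit of those 2 populations alone gave an adjusted p of 0.064. With the replicate block 2 members passed, Sun2 (adjusted p = 0.00492) and Lmnb1 1423520_at, which was lower in GMP (-0.39, adjusted p = 0.0405). The MEP to GMP difference of Sun2 exceeded that of the CMP fractions by 1.53 ± 0.230 (contrast -1.53, adjusted p = 0.0157), the only member probe set of 23 for which the 2 differences were unequal by test, against 1.1% of all probe sets (0.535% in that direction). That adjusted p was 0.0536 without MEP replicate 2 and 0.0501 without CD27- CMP replicate 2. The other Sun2 probe set, 1439238_at, did not pass (-0.48, adjusted p = 0.414, and -0.70, adjusted p = 0.193).

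**Figure D3:**
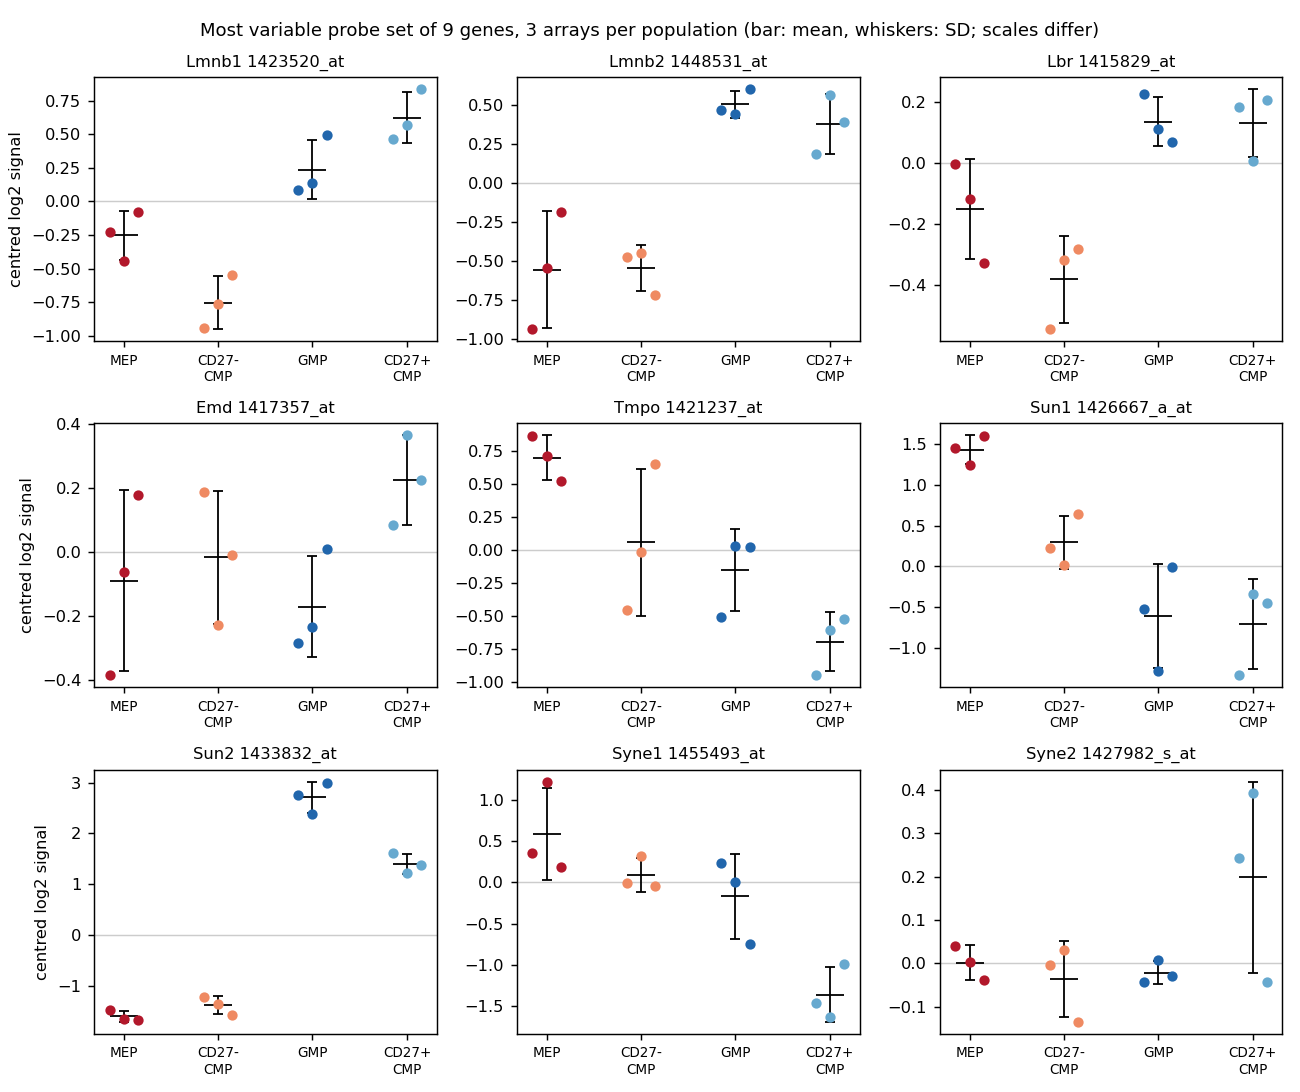
Centred log2 signal of the 9 genes other than Lmna by population, 3 arrays each, taking for every gene its most variable probe set, with the mean as a bar, the SD as whiskers and a separate scale for each gene. Sun2 is highest in GMP (2.38 to 2.99), Lmnb1, Lmnb2 and Lbr lie lower in MEP and CD27- CMP than in the other populations, and Syne1 is lowest in CD27+ CMP.

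Of the nesprins, Syne1 passed between the CMP fractions and Syne2 did not. Syne1 (1455493_at), which encodes nesprin-1, read 0.36, 1.23 and 0.19 in MEP and -0.01, 0.32 and -0.05 in CD27- CMP, against 0.23, 0.01 and -0.75 for GMP and -1.46, -1.63 and -0.995 in CD27+ CMP. CD27+ CMP was below all other arrays. Syne1 was higher in CD27- CMP (1.45 ± 0.329, adjusted p = 0.0158), although the adjusted p was 0.0559 without CD27+ CMP replicate 1, 0.0569 without its replicate 2 and 0.0613 without CD27- CMP replicate 2. The other Syne1 probe sets, 1421545_a_at (0.03, adjusted p = 0.912) and 1455225_at (0.02, adjusted p = 0.712), did not pass. For 1455493_at MEP minus GMP was 0.76 (adjusted p = 0.194) and GMP minus CD27+ CMP was 1.19 (adjusted p = 0.123). With array weights its MEP minus GMP difference passed (1.125, adjusted p = 0.012). The 4 probe sets of Syne2, which encodes nesprin-2, had ranges of 0.0768 to 0.527 log2 and none passed, with a lowest adjusted p of 0.172 between the CMP fractions. For 1427982_s_at, CD27- CMP was lower by 0.35 (-0.35, adjusted p = 0.00551) once CD27+ CMP replicate 3 was left out.

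Between MEP and CD27- CMP, 0 of the 23 probe sets passed with limma, and over the whole array 0.0444% did. An unadjusted p under 0.05 was found for 4 of the 23 and for 5.41% of all probe sets. The 4 were probe sets of Lmnb1 (0.50), Lbr (0.23), Tmpo (0.64) and Sun1 (1.14), all higher in MEP. A p that misses the threshold does not show that the 2 populations were alike for these genes.

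Further genes of the nuclear envelope were taken from 6 lists with 53 genes, of which 49 were measured. For each gene the probe set with the largest SD over the arrays was taken. Of the 49, 7 were higher and 10 lower in CD27- CMP than in CD27+ CMP, and 7 were higher and 7 lower in MEP than in GMP. Over all genes 10.3% were higher and 12.1% lower in the CMP comparison, and 11.3% and 11.5% in MEP minus GMP.

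Among 6 genes of lamin processing and cleavage, 2 rose in both comparisons and none fell, with median differences of 0.48 and 0.49 against 0.03 and 0.04 for all genes. Fnta, the shared alpha subunit of the prenyl transferases that farnesylate lamins, rose by 0.70 in CD27- CMP (adjusted p = 0.000542) and by 0.61 in MEP (adjusted p = 0.00117). Casp6, the caspase that cleaves lamin A, rose by 0.81 (adjusted p = 0.000891) and by 2.25 (adjusted p = 9.47e-07), while its second probe set differed by 0.06 in both. The excess of the second Casp6 difference was 1.44 ± 0.171 (adjusted p = 0.00364), and Casp6 fell by 1.11 in GMP against CD27+ CMP (adjusted p = 0.000805). Over all genes 1.05% had such an excess and 2.59% were lower in GMP than in CD27+ CMP.

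Of 12 further LINC and torsin genes, 4 fell in CD27- CMP, and in MEP 3 fell and 1 rose. Syne3, which encodes nesprin-3, fell by 1.47 (adjusted p = 0.00156) and by 1.73 (adjusted p = 0.000508). Plec, the plectin that links nesprin-3 to intermediate filaments, fell by 2.61 in CD27- CMP (adjusted p = 0.00246) and did not pass in MEP (-0.97, adjusted p = 0.178), where another Plec probe set differed by -1.99. Tor1aip1, the torsin cofactor LAP1 that binds lamins, fell by 1.23 (adjusted p = 0.000572) and by 1.39 (adjusted p = 0.000229). Among 7 genes of LEM domain proteins and BAF, Vrk1, the kinase that releases BAF from DNA, alone passed, at -0.71 (adjusted p = 0.00319) and -0.50 (adjusted p = 0.0205). Its second probe set differed by -0.22 and 0.007.

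Of 5 other inner nuclear membrane proteins, 3 fell and 1 rose in each comparison, with medians of -1.96 and -1.20. Tmem43, which encodes LUMA, fell by 2.82 in CD27- CMP and by 2.53 in MEP (adjusted p = 2.88e-06 in MEP), although its second probe set differed by 0.00 and 0.02. Nrm, which encodes nurim, fell by 1.96 and 1.35, although its second probe set differed by 0.03 and 0.04. Nemp2 fell by 1.99 and 1.20. Tm7sf2, a sterol reductase related to LBR, rose by 1.31 (adjusted p = 0.00151) and 0.81 (adjusted p = 0.0213).

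Of 8 genes of HP1 proteins and histone H3 lysine 9 methylation, 1 rose and 1 fell in CD27- CMP and none passed in MEP. Setdb1, a methyltransferase, rose by 0.84 (adjusted p = 0.0276) and Ehmt1, another, fell by 0.61 (adjusted p = 0.04). Other Setdb1 probe sets differed by 0.10 and 0.65 between the CMP fractions. In MEP minus GMP they differed by 0.96 and 0.57, against 0.13 in the one taken. Of 11 nuclear pore genes, 3 rose and 1 fell in CD27- CMP, and 3 rose in MEP. Ahctf1, which encodes ELYS, rose by 2.60 (adjusted p = 0.0215) and 2.21 (adjusted p = 0.0443), and its other probe sets differed by 1.52 to 1.66 in the CMP comparison. Nup210, a membrane nucleoporin, fell by 1.01 in CD27- CMP (adjusted p = 0.0145), although its second probe set differed by 0.03.

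**Figure D4:**
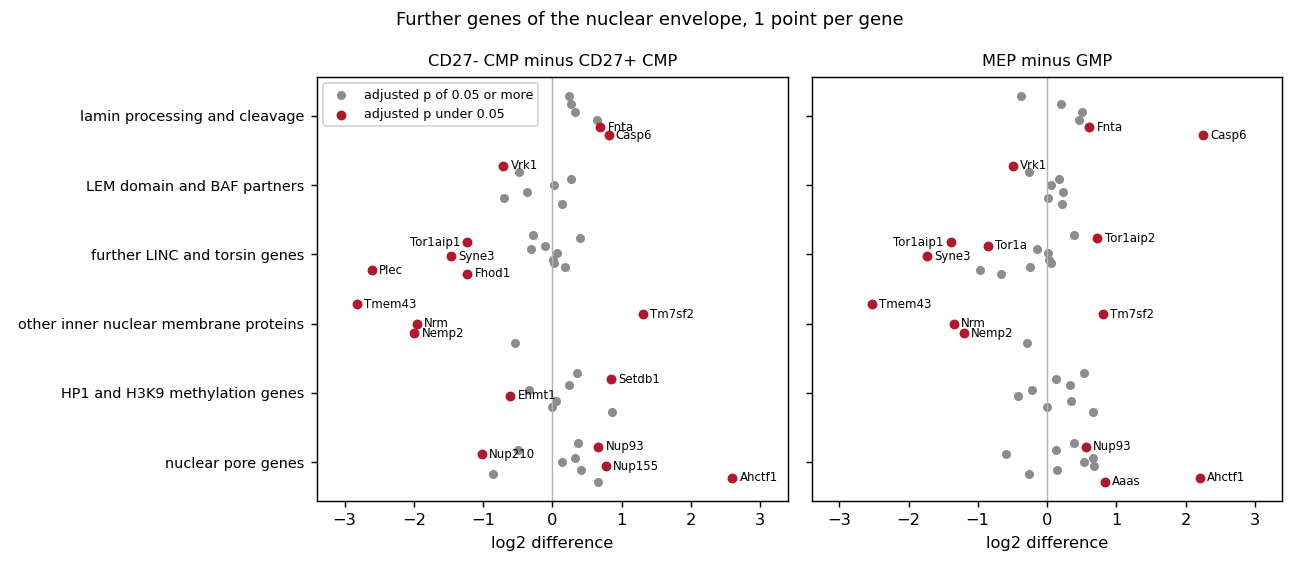
Log2 difference of 49 further nuclear envelope genes in CD27- CMP minus CD27+ CMP and MEP minus GMP, 1 point per gene, grouped by list and coloured where the adjusted p was under 0.05. Tmem43, Nrm and Nemp2 lie below 0 and Casp6, Tm7sf2 and Ahctf1 above it in both panels.

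The 6 genes closest to the widest Lmna probe set, by root mean square difference over the 12 arrays among 16329 genes, were Aldh1a1 (0.505 log2), Aldh1a7 (0.526), Myh10 (0.56), Tspan8 (0.561), Atp1b2 (0.562) and Tspo2 (0.595). Aldh1a1, a retinaldehyde dehydrogenase, differed by 7.36 in CD27- CMP minus CD27+ CMP. Aldh1a7 is its close paralogue, and their probes may share signal. Myh10, the heavy chain of non-muscle myosin IIB, differed by 7.37, but its second probe set by only 0.05. Pearson's r with Lmna was at least 0.98 for 179 genes.

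Erythroid and monocyte markers differed along the same divide. Of 12 measured erythroid markers, 9 were higher in CD27- CMP than in CD27+ CMP and 9 in MEP than in GMP, and their mean per array was 2.40 to 2.60 in MEP and 2.18 to 2.29 in CD27- CMP, against -4.05 to -2.30 for GMP and -3.56 to -2.50 in CD27+ CMP. All 7 monocyte markers were lower in MEP than for GMP and 6 were lower in CD27- CMP than in CD27+ CMP. Stromal and endothelial markers averaged -0.52 to -0.26 in MEP and -0.40 to -0.31 in CD27- CMP, against 0.33 to 0.37 for GMP and 0.66 to 0.75 in CD27+ CMP. These means rest on few genes. Of the 14 stromal and endothelial markers, Pecam1, Pdgfrb, Vim and Emcn fell in CD27- CMP and the first 3 of them in MEP, while the median difference of the list was 0.002 and 0.027. Of 11 neutrophil markers 2 and 5 were lower, of 11 macrophage markers 1 and 3, and of 6 B and T cell markers 1 and 1, beside 12.1% and 11.5% of all genes. Of 8 megakaryocyte markers 2 rose in CD27- CMP, and in MEP 2 rose and 1 fell. Of 13 mitosis genes 2 rose in CD27- CMP and 3 in MEP. Over all genes 10.3% were higher in CD27- CMP than in CD27+ CMP and 11.3% in MEP than in GMP. The mean of the mitosis genes overlapped between CD27- CMP (-0.17 to 0.33) and CD27+ CMP (-0.09 to 0.03). Cd34 averaged -3.22 ± 0.613 in CD27- CMP, against 4.10 ± 0.101 in CD27+ CMP (SD, n = 3 each), although both were sorted as CD34+. The part of these differences in cell makeup in the lamina and LINC values was not tested.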

How the data were processed

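The deposited values of 45037 probe sets on 12 arrays were read as log2. The submitters' processing notes name GCRMA as the tool. The base of the logarithm is not given in the sources used here, and GCRMA gives log2. The median of every probe set over the 12 arrays lies within 5e-07 of 0, so the absolute signal is lost and no filter on detection could be applied. GCRMA draws weak signals toward a background.

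The platform annotation gave exactly 1 symbol to 34945 probe sets, covering 18193 genes. The gene number of 10 of 10 members was that of the RefSeq gene (GRCm38.p6) with the same symbol. The tests used limma (version 3.58.1, R 4.3.3) with 1 mean per population, all 12 arrays in 1 fit, empirical Bayes moderation, two-sided tests, Benjamini-Hochberg adjustment over all probe sets (over all genes for the gene lists), and a threshold of 0.05. Deviations of same-numbered arrays were correlated above 0.1 in all 3 pairs for MEP with GMP and for GMP with CD27+ CMP. That held in 2 of 3 pairs for MEP with CD27+ CMP and in 1 of 3 for the CMP fractions. It held in 0 of 3 for MEP and for GMP with CD27- CMP. Values with the replicate block are given beside calls it changed in MEP minus GMP and GMP minus CD27+ CMP. The script was first tested on simulated data. Precision is limited by the number of arrays.

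The members and lists were chosen with earlier results of these data known. The text names all members and the 6 genes closest to Lmna. Of the list genes past the threshold it describes only some, among those with the largest differences. Fhod1, Tor1a, Tor1aip2, Nup93, Nup155 and Aaas passed across CD27 and were counted but not described. Nrm was also lower in GMP than in CD27+ CMP (-0.86, adjusted p = 0.0395). Few of the marker genes that passed, and none of the mitosis genes, were named. Of the genes on the 14 lists, 12 had no probe set of a single symbol. Alternatives were median centring, quantile normalization, a range filter, array weights, fits of only the populations compared, the replicate number as a block, single arrays left out and, for lists, the mean of a gene's probe sets.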

Additional observations from a re-analysis of the deposited data

Results flagged for a closer look

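The test of whether the MEP minus GMP difference was unequal to the CD27- CMP minus CD27+ CMP difference passed for 2 genes among the tested members and the 49 further nuclear envelope genes. Sun2 (1433832_at) had a contrast of -1.53 log2 (adjusted p = 0.0157), so it fell further in MEP against GMP than between the CMP fractions. Casp6 (1415995_at) had a contrast of 1.44 log2 (adjusted p = 0.00364), so it rose further in MEP against GMP, while its second probe set had a contrast of 0.0037. With 3 arrays a population, no array was tested for standing apart from its group.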

How the results depend on the processing

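The counts of the 23 tested probe sets that passed in CD27- CMP minus CD27+ CMP ran from 6 to 8, and in MEP minus GMP from 5 to 7, with single arrays left out. Array weights ran from 0.184 (CD27- CMP replicate 3) to 11.1 (MEP replicate 2) and raised most counts. With them 14 of the 23 passed in MEP minus GMP, 3 in MEP minus CD27- CMP, 2 in GMP minus CD27+ CMP and 2 for the contrast of differences. Over all probe sets they gave 13737 in CD27- CMP minus CD27+ CMP (9183 higher and 4554 lower), 17650 in MEP minus GMP, 3820 in MEP minus CD27- CMP, 2533 in GMP minus CD27+ CMP and 1627 for the contrast. Fits of only the populations compared gave 0 over all probe sets in MEP minus CD27- CMP, and 600 over all and 0 of the 23 in GMP minus CD27+ CMP. The range filter kept 14 of the 28 probe sets of the 10 genes, Lmna included. Of those kept outside Lmna, 2 passed in GMP minus CD27+ CMP. With single arrays left out, counts over all probe sets were 17 to 161 in MEP minus CD27- CMP, 898 to 1423 in GMP minus CD27+ CMP and 302 to 539 for the contrast, and member counts were 1 to 2 and 0 to 1 for the last 2. Why these counts moved was not tested.

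The replicate block gave 2 of the 23 in GMP minus CD27+ CMP and 2 for the contrast, where it added Lmnb1 1423520_at (0.89, adjusted p = 0.0144). Beyond the calls named above it changed no call of the 23 in the 5 comparisons tested. Same-numbered arrays correlated at -0.328 to 0.576, with the values under 0 all in pairs with CD27- CMP, and 9 of 12 arrays correlated best with their own number. The sign turned in MEP minus GMP for near-zero values: Lmna 1452212_at at -0.016 with median centring and -0.031 with quantile normalization, Syne2 1427982_s_at at -0.0081 and -0.020 under the same settings, and Emd, whose differences with single arrays left out ran from -0.053 (without MEP replicate 3) to 0.23. The widest Lmna probe set stood at 9.45 and 9.82 log2 with quantile normalization, against 7.87 and 8.76. By Pearson's r, only Aldh1a1 of the 6 genes closest to Lmna remained among the closest 6. With the mean of a gene's probe sets, the LEM list had 2 lower in CD27- CMP and 0 in MEP, the LINC list had 1 higher in CD27- CMP and 4 lower in MEP, the HP1 list 1 higher in MEP and the pore list 4 higher in MEP. In GMP minus CD27+ CMP the inner membrane list had 2 lower and the pore list 1 higher. List genes were not refitted with arrays left out.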

Other observations

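CD27- CMP replicate 3 stood lower than the other CD27- CMP arrays for Lmna in 3 probe sets, at 3.37, 1.71 and 0.36 log2, and higher for Tmpo 1421237_at at 0.65 and for Sun1 1426667_a_at at 0.65. For the other Sun1 probe set, 1426666_a_at, the same array stood lowest at 0.52, against 1.05 and 0.89. Its mean over 13 mitosis genes was 0.33, against -0.17 and -0.16 in the other CD27- CMP arrays. Groups of 3 arrays were not tested for such differences.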
